A study of Mus musculus with 2 samples.

Results

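Ligand-gated neurotransmitter receptors are ion channels that open when a transmitter binds them, and 67 mouse genes for their subunits were described here in histamine-making cells of the stomach. The genes were chosen by symbol, and no measured value entered the rule. Earlier results of these data were known when the list was chosen. They comprise 19 subunits of GABA-A receptors, 5 of glycine receptors, 16 of nicotinic acetylcholine receptors, 2 of serotonin 5-HT3 receptors, 18 of ionotropic glutamate receptors and 7 of ATP-gated P2X receptors. All 67 were found among the 37681 gene identifiers of the counted files.

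RNA came from the corpus of the stomach, where acid is made, of C57BL/6 mice transgenic for Hdc-CFP, in which a cyan fluorescent protein marks cells that use Hdc, the gene for histidine decarboxylase. The study asked where these cells come from. One library was made from cells sorted as Hdc-CFP+ (the sorted library) and 1 from epithelial cells of the corpus left after depletion of Hdc-CFP cells (the depleted library). Both carried the same transgene and strain. The sources used here give neither the age and number of the mice nor how the transgene was made. The cells were sorted by a reporter of Hdc, so the difference in Hdc itself is a check of the sort.

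Gene counts summed to 10736538 for the sorted library, against 50928524 for the depleted one (a ratio of 4.74 between them, depleted over sorted). Levels below are normalised CPM, counts scaled to library size, with 95% intervals for counting error in square brackets, and a fold is the CPM in the sorted over that in the depleted library. Since each group is a single library, differences have no replicate check and no p-value, and the comparisons hold for this pair of libraries. Hdc stood at 106553 counts in the sorted library, against 951 in the depleted library, which gives a fold of 413 [388 to 441]. Markers of ECL (enterochromaffin-like) cells, which release histamine in the corpus, were higher in the sorted library for all 5 listed genes (Hdc, Chga, Slc18a2, Cckbr and Sstr2), and markers of surface mucous and parietal cells were lower for 3 of 3 and 5 of 5 measured genes. Markers of chief and mucous neck cells were lower for only 1 of 4 and 2 of 4 measured genes. The chief cell list still summed to 16534 CPM in the sorted library, against 65945 CPM in the depleted library. In bulk samples such as these, fewer cells of a type and less RNA per cell cannot be told apart.

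GABA-A, glycine, nicotinic and 5-HT3 receptors belong to the Cys-loop family, rings of homologous subunits around a pore that passes chloride in the first pair and cations in the other pair. Ionotropic glutamate receptors are a separate family divided into AMPA, kainate, delta and NMDA types, and P2X receptors are trimers opened by extracellular ATP. Which subunits a cell makes sets the ligand, the ions that pass and the pharmacology of its receptors. Endocrine cells of the gut are electrically excitable, and nerves of the stomach wall release acetylcholine and ATP among other transmitters.

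Of the 67 genes, 48 had at least 1 count in either library and 19 had none in both. At least 10 counts in at least 1 library, the minimum used here to call a gene measured, were reached by 32 genes. A gene was called higher or lower where it was measured and differed at least 4-fold, with the whole interval past 2-fold. By this rule 20 of the 32 measured subunit genes were higher in the sorted library, 1 was lower and 11 were not called. Among all 16682 measured genes, 13.6% were called higher and 11.3% lower. Where a gene passed the count minimum in the sorted library alone it nearly had to differ. Of the 18 subunit genes with at least 10 counts in both libraries, 12 were higher and 0 lower, against 11% higher and 8.43% lower among the 13143 genes with a symbol that passed in both. The 8 that passed in the sorted library alone were all called higher, as were 98.3% of all such genes. These 8 were Gabrg3, Glrb, Chrna3, Chrna4, Chrna7, Chrna10, Gria3 and Grin2c. Of the 6 that passed in the depleted library alone 1 was lower, against 32.9% of all such genes.

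The median log2 fold of the measured subunit genes was 3.95, against -0.05 over all measured genes. The 67 genes together held 11939 counts in the sorted library, or 980.4 CPM [962.9 to 998.2], against 4478 counts in the depleted library, or 99.7 CPM [96.8 to 103]. The libraries drew these counts from different genes. In the sorted library Gria2 and P2rx1 made up 40.2% of the subunit counts. In the depleted library P2rx4 and P2rx7 alone made up 73.9%. Detection was also set at a common depth: 44 genes had at least 1 count in the sorted library, against 42 in the depleted library as deposited and 30.6 expected there at the depth of the sorted library.

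**Figure D1:**
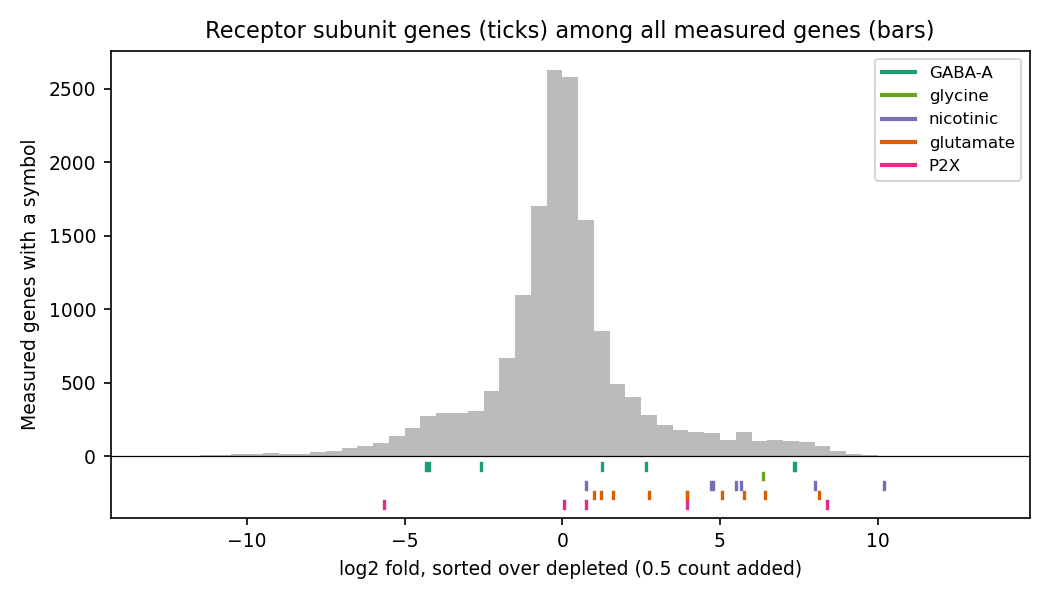
Histogram of the log2 fold, sorted over depleted, of all measured genes with a symbol (bars, number of genes), with 30 measured receptor subunit genes as ticks coloured by family. The ticks of the nicotinic and glutamate families lie right of 0, while the GABA-A and P2X families lie on both sides. Ticks of the genes with 0 counts in 1 library (Chrna3 at the far right, Gabra2 and Gabrp at the left of the GABA-A row) depend on the 0.5 counts added.

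**Figure D2:**
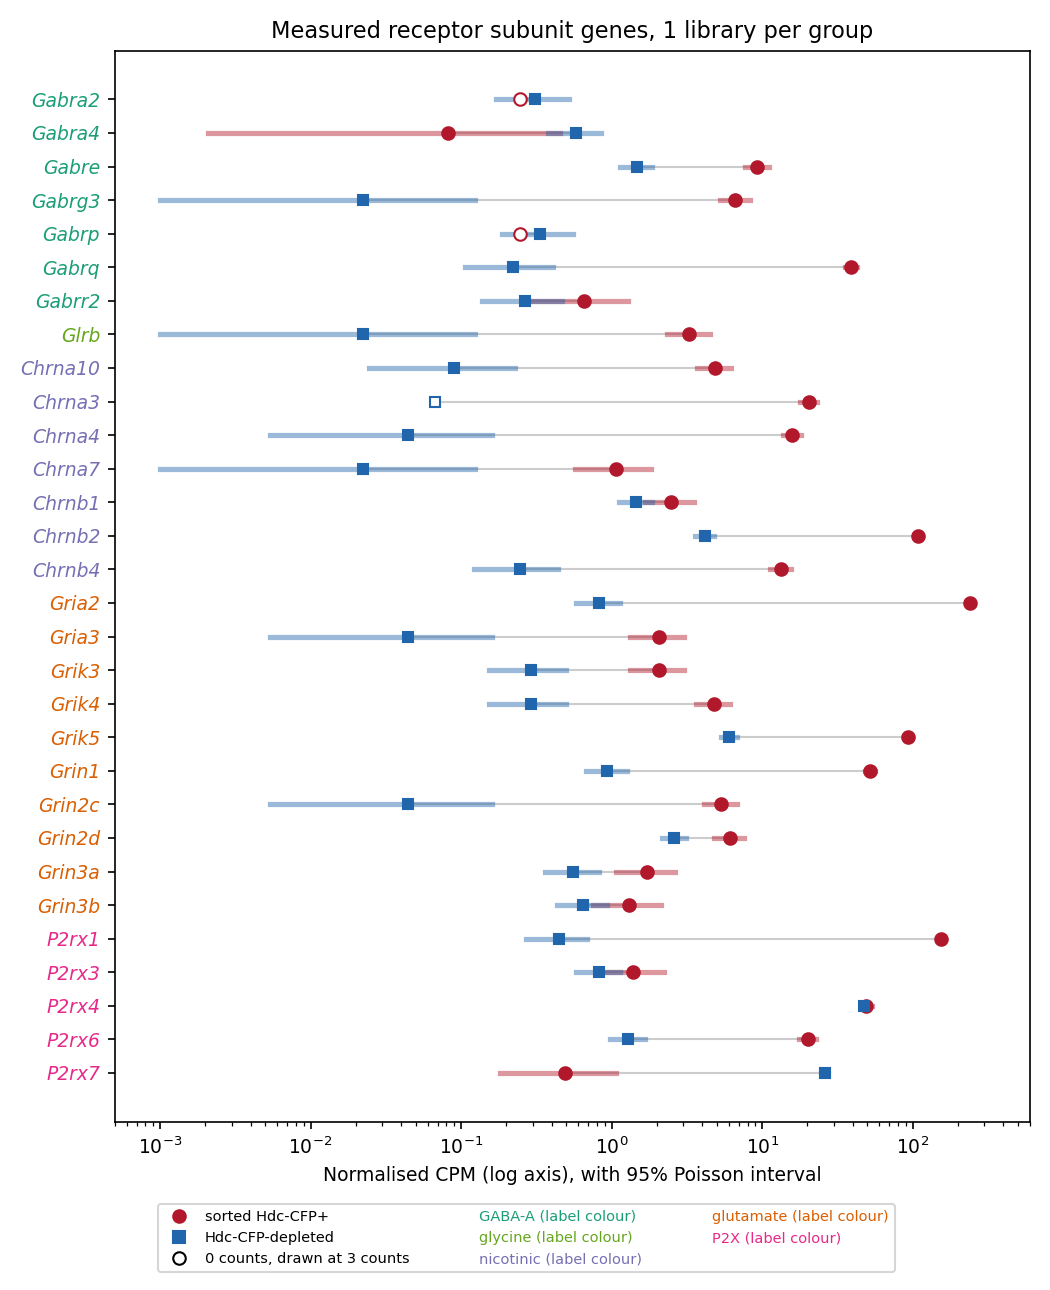
Normalised CPM on a log axis of 30 measured subunit genes in the sorted library (red circles) and the depleted library (blue squares), 1 library each, with 95% Poisson intervals as thick bars. Open symbols mark 0 counts and are drawn at the level of 3 counts. Wide gaps separate Gria2, P2rx1, Chrna3 and Chrna4 in the sorted library from their levels in the depleted library, the symbols of P2rx4 coincide, and P2rx7 lies the other way.

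The upstream sequence of 5 subunit genes is shown for the gene with the most sorted counts among those called higher in each family and listed in the RefSeq promoter table (GRCm38.p6), which held 46 of the 67 genes. Each run is the 250 bases before the annotated start on the gene's own strand, 5′ to 3′, with every CG dinucleotide in capitals, so that their CG content can be compared. The positions are chr3:80802836-80803085 (Gria2, minus strand), chr11:72998895-72999144 (P2rx1, plus strand), chr3:89764633-89764882 (Chrnb2, minus strand), chrX:72824928-72825177 (Gabrq, plus strand) and chr3:80913661-80913910 (Glrb, minus strand).
Gria2: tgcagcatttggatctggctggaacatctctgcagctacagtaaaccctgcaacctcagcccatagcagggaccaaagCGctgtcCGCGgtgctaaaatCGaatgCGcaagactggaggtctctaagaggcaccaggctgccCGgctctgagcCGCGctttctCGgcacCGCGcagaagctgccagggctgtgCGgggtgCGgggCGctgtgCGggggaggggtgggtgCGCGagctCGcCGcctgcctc
P2rx1: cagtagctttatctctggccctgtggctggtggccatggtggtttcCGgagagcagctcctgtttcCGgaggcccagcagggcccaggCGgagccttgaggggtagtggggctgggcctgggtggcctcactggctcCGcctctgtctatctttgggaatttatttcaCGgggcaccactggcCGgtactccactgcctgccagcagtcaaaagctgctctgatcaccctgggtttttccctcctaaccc
Chrnb2: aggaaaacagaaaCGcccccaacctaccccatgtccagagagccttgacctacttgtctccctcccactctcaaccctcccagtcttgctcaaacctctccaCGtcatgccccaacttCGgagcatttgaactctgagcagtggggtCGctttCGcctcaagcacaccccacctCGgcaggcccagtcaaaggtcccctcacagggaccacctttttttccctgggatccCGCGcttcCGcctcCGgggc
Gabrq: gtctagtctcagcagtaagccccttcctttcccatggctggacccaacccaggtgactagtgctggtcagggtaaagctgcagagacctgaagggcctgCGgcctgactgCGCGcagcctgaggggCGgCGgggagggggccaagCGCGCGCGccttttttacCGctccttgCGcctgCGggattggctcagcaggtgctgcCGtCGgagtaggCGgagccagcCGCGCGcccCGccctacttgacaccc
Glrb: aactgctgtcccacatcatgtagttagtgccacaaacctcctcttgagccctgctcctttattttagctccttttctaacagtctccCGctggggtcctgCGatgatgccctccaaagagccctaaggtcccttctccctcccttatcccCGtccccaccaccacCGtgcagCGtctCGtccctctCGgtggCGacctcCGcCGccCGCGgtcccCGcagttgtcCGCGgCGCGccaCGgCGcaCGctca

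These runs held 19 CG dinucleotides for Gria2, 6 for P2rx1, 10 for Chrnb2, 19 for Gabrq and 20 for Glrb. The median over the promoters of the 18 genes called higher that the table lists was 17, with a range of 1 (Chrna10) to 42 (Grik3). Over all 32851 promoters of the table the median was 6, with quartiles at 2 and 16. The 8 promoters of subunit genes that were measured but not called had a median of 10.5, with quartiles at 1.75 and 13.25. The 24 promoters of subunit genes that were not measured had a median of 4. Both listed promoters of P2rx7, the gene that was lower, held 6 and 4. The letters TATAAA, searched on both strands over 250 bases before and 50 after the start, occurred in 1 of the 18 promoters of genes called higher and in 13.6% of all promoters.

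The RE1 element is the sequence bound by REST, a repressor of neuronal genes in other cells. Its consensus, searched on both strands of the same windows, matched 1 of the 52 promoters of subunit genes and 21, or 0.0639%, of all promoters. The 1 match was in the Gria2 promoter, from 170 to 155 bases before the start, and is shown in capitals with its flanks at chr3:80802983-80803012 on the minus strand. In this reading the element lies on the opposite strand.
Gria2 RE1: caaagcgCTGTCCGCGGTGCTAAaatcgaa
A match is a description of letters, not of binding.

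Among the GABA-A receptor genes, those of the θ, ε and γ3 subunits were among the genes higher in the sorted library. Of the 19 genes 9 were measured, 4 were higher, 0 lower and 5 not called, with a median log2 fold of 1.24. Gabrq (ENSMUSG00000031344), the θ subunit, had 473 counts or 38.8 CPM [35.4 to 42.5] in the sorted library, against 10 counts or 0.223 CPM [0.107 to 0.410] in the depleted library, and was 174-fold higher [94.0 to 366]. Gabre (ENSMUSG00000031340), the ε subunit, had 113 counts or 9.28 CPM in the sorted library, against 66 counts or 1.47 CPM in the depleted library, a smaller difference of 6.31-fold [4.62 to 8.69]. Gabrg3 (ENSMUSG00000055026), the γ3 subunit, had 81 counts or 6.65 CPM in the sorted library, against 1 count in the depleted library, which gives a ratio of 299 [52.1 to 11941]. Gabrg3 passed the count minimum in the sorted library alone, which nearly fixed its call. For these 3 genes the intervals of the level did not overlap between the libraries. This is no separate evidence, since their call already needed the whole fold interval past 2-fold.

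The α subunits help to form the GABA and benzodiazepine sites of brain receptors. Gabra5 had 8 counts in the sorted library, against 0 in the depleted library, and so was not measured. Gabra2, with 0 counts in the sorted library and 14 in the depleted library, was not called, because 0 counts allow a level of 0.246 CPM in the sorted library. Gabra4 had 1 count in the sorted library, against 26 in the depleted one, a ratio of 0.142 [0.00346 to 0.863], and was not called. Gabra3 had 1 count in each library and Gabra6 none in either.

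Gabrp, the π subunit found in epithelia, had 0 counts in the sorted library and 15 in the depleted library, and its sorted level at the 3-count floor was 0.738 of the depleted one, so no difference was called. Gabrr2, a ρ subunit of retina, had 8 counts in the sorted library and 12 in the depleted library, a fold of 2.46 [0.872 to 6.54] that was not called. Gabrd, the δ subunit, had 2 counts in the sorted library and 1 in the depleted one, and Gabrr1 2 and 0. Gabrb1, Gabrb2, Gabrg1 and Gabrr3 had no count in either.

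Per length of exon, Gabrq stood at 7.26 normalised counts per kilobase of exon on the CPM scale (RPKM) in the sorted library [6.62 to 7.94], Gabre at 1.96 [1.61 to 2.36] and Gabrg3 at 0.557 [0.443 to 0.693]. On this scale Gabrq made up 25.5% of the GABA-A total in the sorted library. In the depleted library Gabre had the largest part, 34.3% of a total of 0.903 RPKM, against 28.5 RPKM in the sorted library.

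Of the 5 glycine receptor genes, Glrb alone was measured, and it passed the count minimum in the sorted library alone, which nearly fixed its call. Glrb (ENSMUSG00000028020), the β subunit, which binds the anchor protein gephyrin, had 40 counts or 3.28 CPM in the sorted library, against 1 count in the depleted library, a ratio of 148 [25 to 5970]. The ligand-binding α subunits were at or near 0, with 4 counts among the sorted cells and 8 in the depleted library for Glra4 and 0 in both for Glra1, Glra2 and Glra3. Of the serotonin 5-HT3 receptor genes, which encode the ionotropic serotonin receptor, Htr3a had 2 counts in each library and Htr3b none. No difference could be detected with so few reads, where 3 counts correspond to 0.246 CPM in the sorted library and 0.0668 CPM in the depleted library.

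Among the nicotinic receptor genes, Chrna3, Chrna4, Chrna7, Chrna10, Chrnb2 and Chrnb4 were higher in the sorted library. Of 16 genes 7 were measured, 6 were higher, 0 lower and 1 not called, with a median log2 fold of 5.51. Of the higher genes, Chrna3, Chrna4, Chrna7 and Chrna10 passed the count minimum in the sorted library alone. That nearly fixed their call, since 98.3% of all such genes were called higher. Chrnb2 (ENSMUSG00000027950), the β2 subunit that pairs with α4 in the main nicotinic receptor of brain, had 1328 counts or 109 CPM [103 to 115] in the sorted library, against 187 counts or 4.16 CPM [3.59 to 4.81] in the depleted library, which gives a fold of 26.2 [22.5 to 30.7]. Chrna4 (ENSMUSG00000027577), its α4 partner, had 193 counts or 15.8 CPM [13.7 to 18.2] in the sorted library, against 2 counts in the depleted library, a ratio of 356 [97.2 to 2959]. The ratio of Chrna4 thus lay above that of Chrnb2 beyond counting error, with the overlap of Chrnb2 and Adar, given below, not accounted for.

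The α3 and β4 subunits form the nicotinic receptor of autonomic ganglia, including those of the gut. Chrna3 (ENSMUSG00000032303) had 249 counts or 20.4 CPM [18.0 to 23.2] in the sorted library and 0 in the depleted library, and was at least 306-fold higher with 3 counts as the floor of that library. Chrnb4 (ENSMUSG00000035200) had 162 counts or 13.3 CPM in the sorted library, against 11 counts or 0.245 CPM in the depleted library, which gives a fold of 54.3 [29.6 to 111]. Chrna5, the accessory α5 subunit, whose gene lies in the same cluster, had 0 counts in either library.

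Chrna7 (ENSMUSG00000030525), whose product forms a channel by itself, had 13 counts in the sorted library and 1 in the depleted library, a ratio of 47.9 [7.20 to 2037]. Chrna10 (ENSMUSG00000066279), the α10 subunit of inner ear hair cells, had 59 counts in the sorted library and 4 in the depleted library, which gives a fold of 54.4 [20.2 to 206]. Of its annotated exon length 39.0% overlaps a gene on the other strand, Art1, and its hair cell partner Chrna9 had 0 counts in either library. Chrnb1, the β subunit of the muscle receptor, was not called, with 30 counts or 2.46 CPM in the sorted library and 65 counts or 1.45 CPM in the depleted library (1.70-fold [1.07 to 2.66]). The other muscle subunit genes, Chrna1, Chrnd, Chrne and Chrng, had at most 1 count in the sorted library and 2 in the depleted library. Chrna6 and Chrnb3 had 0 counts in both, and Chrna2 had 0 and 3.

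Per length, Chrnb2 led the nicotinic genes in the sorted library at 13 RPKM [12.3 to 13.7], or 48.7% of the family. Chrna3 at 3.88 RPKM [3.42 to 4.40], Chrnb4 at 3.57 [3.04 to 4.17] and Chrna4 at 3.16 [2.73 to 3.63] followed, and neighbours in this order had overlapping intervals. In the depleted library Chrnb1 (46.6%) and Chrnb2 (40.5%) made up most of a family total of 1.23 RPKM, against 26.7 RPKM in the sorted library. Chrnb2 shares 16.3% of its exon length with Adar on the other strand, which without a stated strand setting could add reads to or take reads from it.

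**Figure D3:**
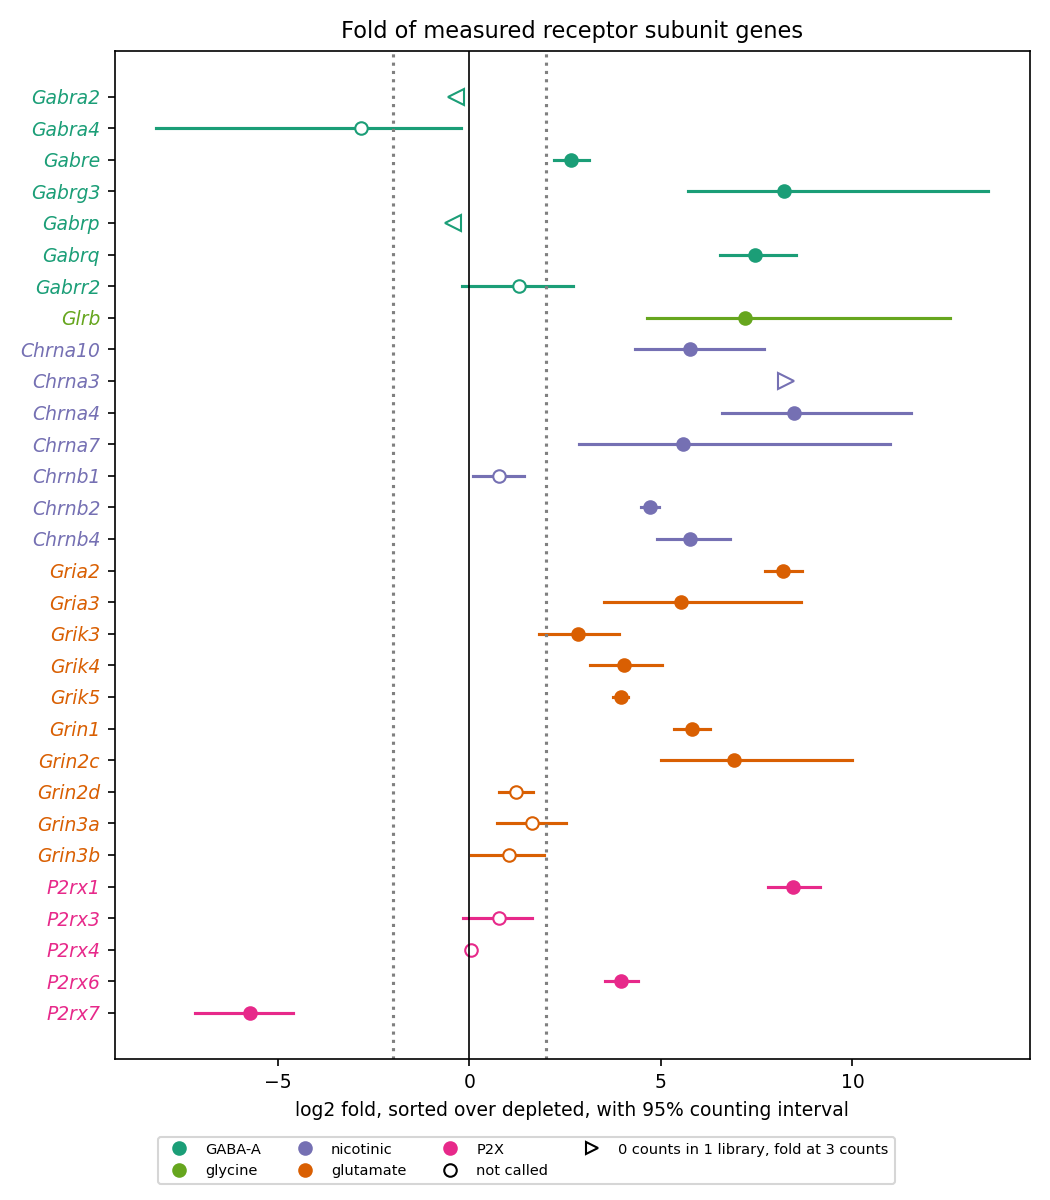
Fold of 30 measured subunit genes, sorted over depleted, on a log2 axis with the 95% counting interval, coloured by family. Dotted lines mark 4-fold in either direction, open circles mark genes not called, and triangles mark genes at 0 counts in 1 library with the fold computed at 3 counts. The 19 genes called higher that are drawn lie right of the upper line, and P2rx7 is the 1 gene called lower.

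Glutamate receptor genes of the AMPA, kainate and NMDA types were among those higher in the sorted library. Of 18 genes 10 were measured, 7 were higher, 0 lower and 3 not called, with a median log2 fold of 3.95. Gria2 (ENSMUSG00000033981), the GluA2 subunit that makes AMPA receptors poorly permeable to calcium once its RNA is edited, had the most counts of all 67 genes in the sorted library, 2915 or 239 CPM [231 to 248], against 37 counts or 0.824 CPM [0.580 to 1.14] in the depleted library. That was a 291-fold difference [210 to 413]. Gria3 had 25 counts in the sorted library and 2 in the depleted library, a ratio of 46.1 [11.5 to 402]. Gria3 passed the count minimum in the sorted library alone, which nearly fixed its call. Gria4 had 3 counts in the sorted library and 0 in the depleted library, and Gria1 none in either. Per length, Gria2 made up 98.4% of AMPA receptor RNA in the sorted library.

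Kainate receptors combine the subunits GluK1 to GluK3 (Grik1 to Grik3), which form channels alone, with GluK4 and GluK5 (Grik4 and Grik5), which need them. Grik5 (ENSMUSG00000003378) had 1137 counts or 93.4 CPM [88.0 to 99.0] in the sorted library, against 272 counts or 6.06 CPM [5.36 to 6.82] in the depleted library, which gives a fold of 15.4 [13.5 to 17.7]. Grik4 (ENSMUSG00000032017) had 58 counts in the sorted library and 13 in the depleted library (16.5-fold [8.91 to 32.7]). Of the subunits that form channels alone, Grik3 had 25 counts in the sorted library and 13 in the depleted library (7.09-fold [3.49 to 15.1]), Grik2 had 1 and 0, and Grik1 had 0 in both. Per length, Grik5 stood at 18.1 RPKM in the sorted library [17.0 to 19.1] and Grik3 at 0.229 [0.148 to 0.338].

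NMDA receptors need GluN1, the product of Grin1, together with GluN2 or GluN3 subunits. Grin1 (ENSMUSG00000026959) had 636 counts or 52.2 CPM [48.2 to 56.5] in the sorted library, against 42 counts or 0.935 CPM [0.674 to 1.26] in the depleted library, which gives a fold of 55.8 [40.8 to 78.2]. Grin2c (ENSMUSG00000020734) had 65 counts in the sorted library and 2 in the depleted library, a ratio of 120 [31.9 to 1011]. Grin2c passed the count minimum in the sorted library alone, which nearly fixed its call. Grin2d, another GluN2 gene, was not called, with 74 counts or 6.08 CPM in the sorted library and 117 counts or 2.61 CPM in the depleted library (2.33-fold [1.72 to 3.15]). Grin2a and Grin2b, the GluN2 subunits of adult forebrain, had 0 counts in the sorted library, against 0 and 2 in the depleted library. Grin3a (3.10-fold [1.65 to 5.76]) and Grin3b (2.03-fold [1.03 to 3.87]) were not called.

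Per length, Grin1 stood at 5.38 RPKM in the sorted library [4.97 to 5.82], above Grin2c at 1.06 [0.818 to 1.35] and Grin2d at 0.913 [0.717 to 1.15], whose intervals overlap. Grin1 shares 13.5% of its exon length with an antisense gene, Grin1os. The delta receptor gene Grid1, whose product acts as a synaptic organiser, had 4 counts in each library.

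**Figure D4:**
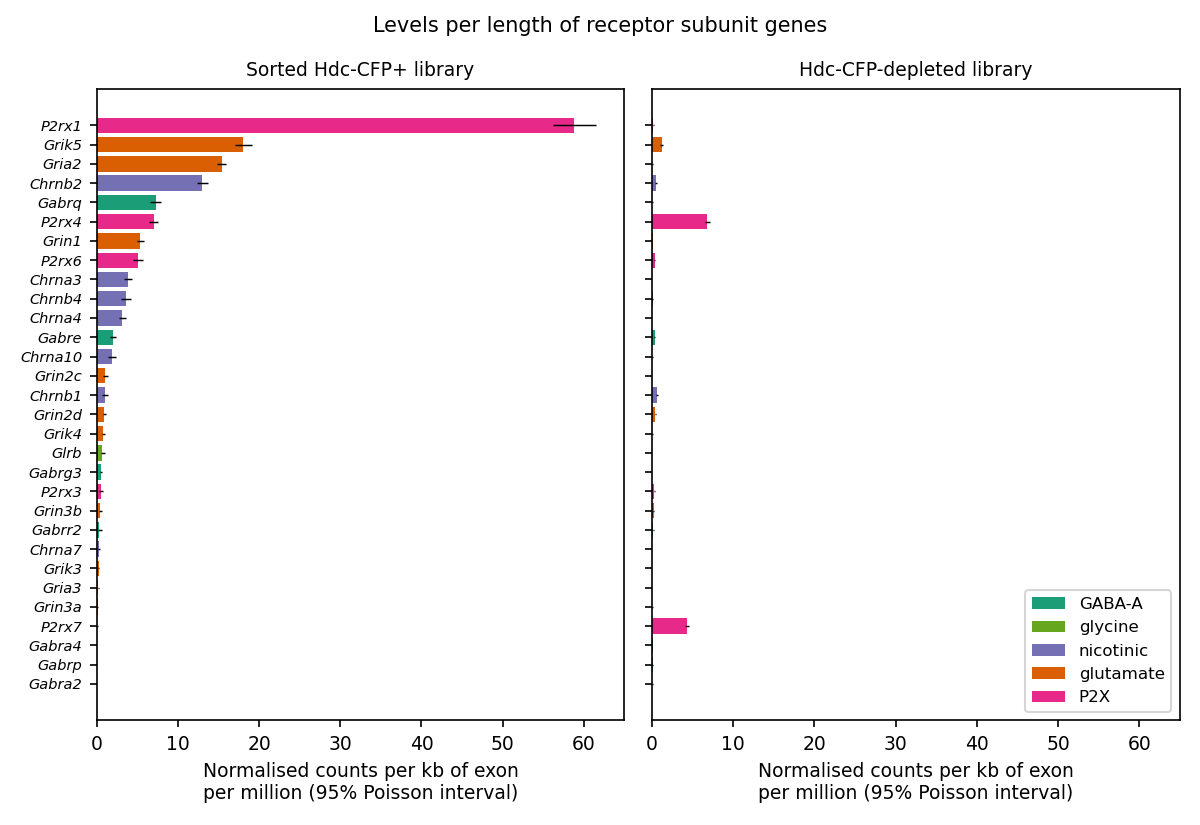
Level per exon length (RPKM) of 30 measured subunit genes in the sorted library (left) and the depleted library (right), on the same linear axis, with 95% Poisson intervals and colours by family. P2rx1 leads the sorted library, followed by Grik5, Gria2 and Chrnb2, while P2rx4 and P2rx7 stand out in the depleted library.

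The P2X family was split between the libraries, with 5 of 7 genes measured, 2 higher, 1 lower and 2 not called and a median log2 fold of 0.75. P2rx1 (ENSMUSG00000020787), a fast desensitising ATP receptor known from smooth muscle and platelets, had 1880 counts or 154 CPM [147 to 162] in the sorted library, against 20 counts or 0.445 CPM [0.272 to 0.688] in the depleted library, which gives a fold of 347 [224 to 569]. At 58.8 RPKM [56.2 to 61.5] it had the highest level per length of all 67 genes in the sorted library, above Grik5 beyond counting error. Markers of pancreatic acinar cells, in which P2RX1 is also used in humans, moved with it: 5 of 8 listed genes were measured and all 5 were higher, and the list summed to 2140 CPM in the sorted library, against 4.90 CPM in the depleted library, with Cpa1 at 0 in both and Amy2a5 at 2 and 0 counts. Their part in the P2rx1 level was not tested.

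P2rx6 (ENSMUSG00000022758), which forms channels mainly with other subunits, had 245 counts or 20.1 CPM in the sorted library, against 58 counts or 1.29 CPM in the depleted library (15.6-fold [11.7 to 21.1]), with 13.9% of its exon length shared with Slc7a4 on the other strand. P2rx4 (ENSMUSG00000029470), a widely used subunit of epithelia and macrophages, had 601 counts or 49.4 CPM [45.5 to 53.5] in the sorted library and 2144 counts or 47.7 CPM [45.7 to 49.8] in the depleted library, giving a fold of 1.03 [0.943 to 1.13]. P2rx3, the subunit of sensory nerves, had 17 counts in the sorted library and 37 in the depleted library and was not called (1.69-fold [0.895 to 3.09]). P2rx2 and P2rx5 had at most 3 counts in the sorted library and 5 in the depleted library.

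P2rx7 (ENSMUSG00000029468), the ATP receptor of macrophages that drives inflammasome activation, was the 1 subunit gene called lower. It had 6 counts or 0.493 CPM [0.181 to 1.07] in the sorted library, against 1167 counts or 26.0 CPM [24.5 to 27.5] in the depleted library, and so was 52.7-fold lower [24.2 to 144]. Macrophage markers moved in the same direction, with all 6 listed genes lower in the sorted library, a summed level of 8.62 CPM against 2442 CPM in the depleted library, and none at 0. Their part in the level of P2rx7 was not tested. P2rx4 and P2rx7 are neighbours on mouse chromosome 5.

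Several subunit genes lie in clusters, and the sorted counts of some of these groups are given here. In the GENCODE M21 annotation 33 of the 67 genes fell into 13 groups of neighbours less than 1000 kb apart. On chromosome 7, Gabrg3 had 81 counts in the sorted library while Gabra5 had 8. On the X chromosome, Gabrq and Gabre had 473 and 113 counts while Gabra3 had 1. On chromosome 9, Chrna3 and Chrnb4 had 249 and 162 while Chrna5 had 0. On chromosome 3, Gria2 and Glrb are neighbours of different families, with 2915 and 40 counts, and both were higher. The GABA-A group of chromosome 5 (Gabrg1, Gabra2, Gabra4, Gabrb1) held no gene with more than 1 count in the sorted library.

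The fold intervals of the 20 higher genes were set beside the 413-fold [388 to 441] of Hdc, whose reporter defined the sort. Whether they overlapped depended on the width of the interval as well as on the fold. Gria3, at 46.1-fold [11.5 to 402], overlapped that of Hdc, while Gabrq, at 174-fold [94.0 to 366], lay under it. For 10 genes the interval overlapped that of Hdc, among them Gria2, Gria3, P2rx1, Gabrg3, Glrb, Chrna3, Chrna4, Chrna7 and Grin2c, several of them with wide intervals from few counts. For the other 10 the whole interval lay under that of Hdc, namely Gabrq, Gabre, Chrnb2, Chrnb4, Chrna10, Grik3, Grik4, Grik5, Grin1 and P2rx6. None lay above it.

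Markers of the other cells that could carry such receptors were read beside these results. The neuron and glia list holds genes that endocrine cells also use, and 7 of its 8 measured genes were higher (summed level 538 CPM in the sorted library, against 5.81 CPM in the depleted library), Snap25 first, with Ret, Elavl4, Elavl3, Nefm and Uchl1 among them. Its glial gene Sox10 and its neurofilament gene Nefl were at 0 counts in both libraries, and Chat had 1 count in the sorted library and 3 in the depleted library. Of the islet list, Ins1, Ins2 and Mafa were at 0 in both libraries, and Ppy had 21 counts in the sorted library and 0 in the depleted library. Of the list of other gut endocrine cells 8 of 9 measured genes were higher, and the list summed to 5496 CPM in the sorted library, against 548 CPM in the depleted library. Mast cell markers were higher in 5 of 9 cases and summed to 296 CPM in the sorted library, against 111 CPM in the depleted library. The skeletal muscle list summed to 1.40 CPM in the sorted library, against 2.23 CPM in the depleted library, and the smooth muscle list to 5.67 CPM, against 13 CPM. The part of these cells in the subunit levels was not tested.

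Genes that work with these receptors were described from 14 lists of 142 genes, of which 139 were found and 104 measured. Of those 104, 33 were higher and 23 lower in the sorted library, read against the 13.6% and 11.3% of all measured genes. For partner genes too, passing the count minimum in the sorted library alone nearly fixed the call. Of all such genes with a symbol, 98.3% were called higher.

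**Figure D5:**
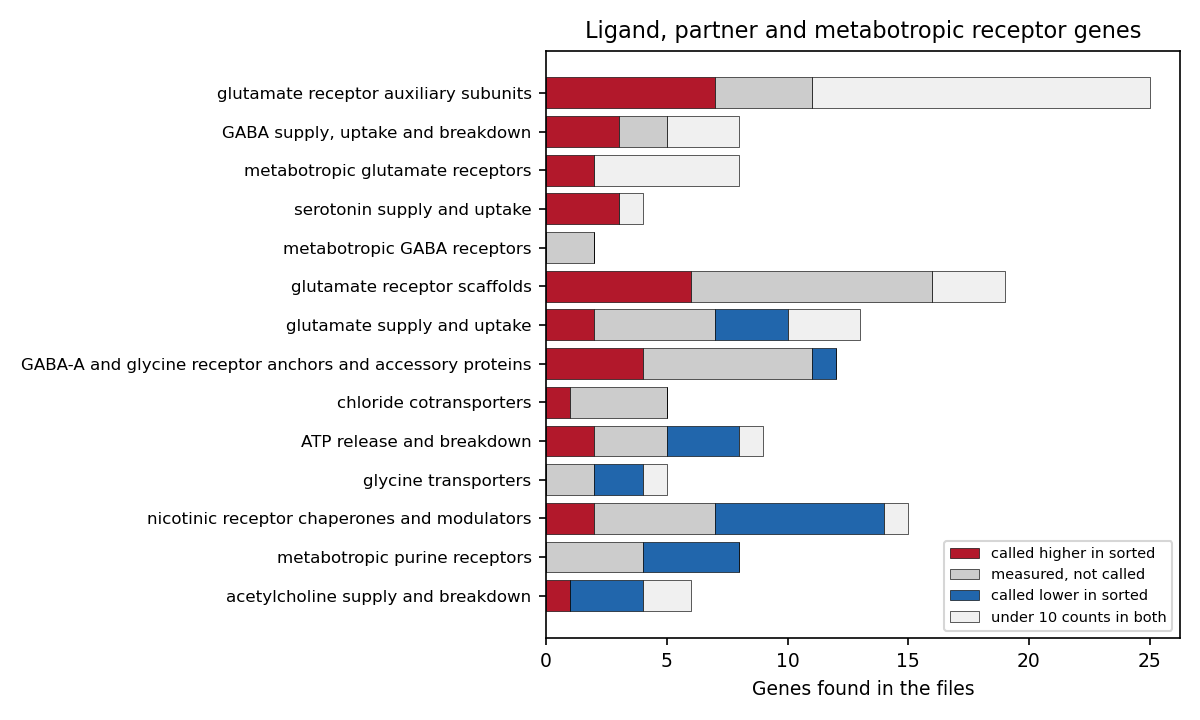
Number of genes of each partner list that were called higher (red), measured but not called (grey), called lower (blue) or under 10 counts in both libraries (pale). Auxiliary subunits of glutamate receptors hold the most genes called higher, and chaperones and modulators of nicotinic receptors the most called lower.

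Auxiliary subunits bind glutamate receptors and set their traffic and gating, and 7 of 11 measured were higher and 0 lower (median log2 fold 5.16). Cacng4, a transmembrane AMPA receptor regulatory protein (TARP), had 1171 counts or 96.2 CPM in the sorted library, against 8 counts or 0.178 CPM in the depleted library, which gives a fold of 540 [273 to 1253]. Cacng5, another TARP, had 171 counts in the sorted library and 0 in the depleted library and was at least 210.2-fold higher. C1ql1, a secreted synapse organiser, had 142 counts in the sorted library and 2 in the depleted library, a ratio of 262 [71.2 to 2183]. Cacng4, Cacng5 and C1ql1 passed the count minimum in the sorted library alone, which nearly fixed their call. Among receptor scaffolds 6 of 16 measured genes were higher and 0 lower (median log2 fold 0.68). Dlg4, which encodes the postsynaptic scaffold PSD-95, was 33.6-fold higher [27.8 to 41.0] at 88.4 CPM in the sorted library, Dlgap3 64.1-fold [31.6 to 151] and Shank1 23.6-fold [19.1 to 29.4]. Dlg1, the most abundant scaffold gene, was not called, with 108 CPM in the sorted library and 178 CPM in the depleted library.

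Anchors and accessory proteins of GABA-A and glycine receptors gave 4 higher and 1 lower of 12 measured genes (median log2 fold 0.36). Lhfpl4, which carries GABA-A receptors to synapses, had 980 counts or 80.5 CPM in the sorted library, against 12 counts or 0.267 CPM in the depleted library (301-fold [172 to 585]). Nlgn2, the adhesion protein of inhibitory synapses, was 23.3-fold higher [20.1 to 27.1] and Shisa7, a GABA-A auxiliary subunit, 19.2-fold [11.7 to 33.3]. Gabarap, the most abundant gene of the list, was not called, with 215 CPM in the sorted library and 252 CPM in the depleted library, and Gphn, the gephyrin gene, stood at 41.1 CPM in the sorted library and 44.5 CPM in the depleted library.

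For the supply of GABA, 3 of 5 measured genes were higher and 0 lower (median log2 fold 5.06). Gad1, an enzyme that makes GABA, had 53 counts in the sorted library and 1 in the depleted library (ratio 195 [33.6 to 7863]), and Abat, which breaks GABA down, was 160-fold higher [90.9 to 312] at 42.8 CPM. Slc6a11, a GABA transporter, had 16 counts and 1 count (ratio 59.0 [9.17 to 2474]). Gad1 and Slc6a11 passed the count minimum in the sorted library alone, which nearly fixed their call. The other GABA-making enzyme gene, Gad2, and the vesicular GABA transporter gene, Slc32a1, had 0 counts in both libraries. The metabotropic GABA receptor genes were not called, with Gabbr1 at 58.2 CPM in the sorted library and 22.7 CPM in the depleted library (2.56-fold [2.32 to 2.82]).

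Chloride transport sets which way current flows through GABA-A and glycine receptors, and 1 of 5 measured cotransporter genes was higher. Slc12a5 (KCC2), the chloride exporter of mature neurons, had 270 counts or 22.2 CPM in the sorted library, against 90 counts or 2.0 CPM in the depleted library (11.1-fold [8.68 to 14.2]). Slc12a2 (NKCC1), a chloride importer, had 127 CPM in the sorted library and 501 CPM in the depleted library, which is 3.95-fold lower [3.75 to 4.16], just under the threshold, and was not called.

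Glutamate supply and uptake genes were mixed, with 2 higher and 3 lower of 10 measured (median log2 fold 0.51). Gls2, a glutaminase, which makes glutamate, was 102-fold higher [75.6 to 140.3] at 102 CPM in the sorted library, and Slc1a1, a glutamate transporter, 62.7-fold [29.5 to 159], with 31.9% of its exon length shared with a gene on the other strand. Glul, which turns glutamate into glutamine, stood at 111 CPM in the sorted library and 629 CPM in the depleted library and was 5.65-fold lower [5.35 to 5.97]. Of 8 metabotropic glutamate receptor genes 6 were not measured. The others, Grm3 and Grm4, were higher on 11 and 14 counts in the sorted library and 2 each in the depleted library. Both passed the count minimum in the sorted library alone, which nearly fixed that call. For glycine, 0 of 4 measured genes were higher and 2 lower, among them Gldc, a glycine breakdown enzyme, which was 14.2-fold lower [12 to 16.9]. Shmt1, which interconverts serine and glycine, was 4.32-fold lower [3.48 to 5.44], a call that was lost with library totals as the scale (log2 fold -1.75).

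Acetylcholine supply and breakdown gave 1 gene higher and 3 lower of 4 measured. Ache, the esterase that ends the acetylcholine signal, was higher, with 173 counts in the sorted library and 43 in the depleted library (14.8-fold [10.6 to 21.2]). Bche was 20.4-fold lower [14.1 to 30.8], Prima1, the membrane anchor of Ache, 25.7-fold lower [18.4 to 36.9], and Colq, at 0 counts among the sorted cells, at least 5.88-fold lower. Of 14 measured chaperones and modulators of nicotinic receptors 2 were higher and 7 lower (median log2 fold -2.22). Ric3, a chaperone of nicotinic and 5-HT3 receptors, was 14.8-fold higher [12.7 to 17.3], and Ly6h, a modulator of the Ly6 family, 90.1-fold [42.8 to 227]. Lypd6b (23.4-fold [17.2 to 32.7]), of the same family, and Lrp4, the agrin receptor of muscle (31.7-fold [16 to 73.6]), were lower in the sorted library. Agrn, the most abundant gene of the list, was not called, with 80.3 CPM in the sorted library and 240 CPM in the depleted one.

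For ATP signalling, 0 of 8 measured metabotropic purine receptor genes were higher and 4 lower, with P2ry13, P2ry6 and P2ry12 at 0 counts in the sorted library, against 1438, 1298 and 1054 in the depleted library. They were at least 130-fold, 117-fold and 95.3-fold lower, and the macrophage markers given beside P2rx7, with 8.62 CPM in the sorted library and 2442 CPM in the depleted library, moved the same way, with their part not tested. Of the genes for ATP release and breakdown 2 of 8 were higher and 3 lower. Panx2, a pannexin, had 50 counts in the sorted library and 5 in the depleted library (36.9-fold [14.8 to 118]). Panx2 passed the count minimum in the sorted library alone, which nearly fixed its call. Entpd1 and Nt5e, which encode enzymes that degrade extracellular nucleotides, were 37.1-fold [20.7 to 74.5] and 16.5-fold lower [14.1 to 19.5]. For serotonin, the ligand of the unmeasured 5-HT3 receptors, all 3 measured supply and uptake genes were higher, Ddc 106-fold [95.04 to 119], Tph1 13.5-fold [10.6 to 17.3] and the transporter gene Slc6a4 5.90-fold [2.97 to 12.1].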

How the data were processed

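RNA from 1 sorted and 1 depleted library was sequenced. The submitters' processing notes name TopHat2 2.0.07, HTSeq and the build mm9, and HTSeq's strand setting, annotation and version are not given in the sources used here. Each deposited file holds whole, unnormalised counts by Ensembl gene identifier. Rows naming no gene stayed out. Outside genes lay 9.20% of the sorted library's alignments and 4.91% of the depleted library's, 1.45% and 1.11% were ambiguous between genes, and 24.2% and 34.3% were not unique. Symbols came from GENCODE M21 (GRCm38, so no mm9 coordinates are given), which named 32642 of 37681 identifiers.

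Scaling used edgeR 4.0.16 TMM factors (R 4.3.3) over measured genes, 1.13 (sorted) and 0.882 (depleted). Folds have exact binomial and levels exact Poisson 95% intervals, which cover counting error only. Reads are not independent molecules. A fold against 0 counts was computed at 3 counts in that library, and log2 folds had 0.5 counts added in proportion to library size. Levels per length used the M21 exon union. Folds and calls were tested on simulated data, which held no variation between samples.

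The members, gene lists, thresholds and naming rule were chosen with earlier results of these data known. All measured subunit genes are named except those not reported here, which stay in counts and sums but not in figures. In each partner list the rule names up to 3 called genes with the largest log2 folds and the most abundant gene. Gphn, Gad2, Slc32a1, Ache, Ric3, and the single marker genes were named after their values were seen. Alternatives were DESeq2 1.42.0 size factors, library totals, upper-quartile scaling, totals without the 20 most abundant genes of either library, other count minimums and other call thresholds. No genome of the files' build was used.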

Additional observations from a re-analysis of the deposited data

How the results depend on the processing

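No paired analysis was possible because each group holds 1 library, so no replicate could be left out either. Under the 4 other scalings all 32 measured subunit genes kept their call and direction, with 20 higher and 1 lower each time, and 1 of the 40 named partner genes, Shmt1, lost its call (log2 fold -1.75 with library totals and -1.90 without the 20 most abundant genes). The not-called Gabarap turned to 0.14 with library totals, which moved the median log2 fold of all genes by 0.36. The median log2 fold of the subunit genes, 3.95, was 2.58 with no count minimum and 5.51 with at least 30 counts. A lower minimum adds genes to this median and a higher one removes genes from it. At a fold of 2 with the interval clear of 1, subunit genes called lower were 2, and all genes called higher and lower were 3652 and 3651. At a fold of 8 with the interval beyond 4, all genes called lower were 1098. With at least 10 counts in place of 1, 26 subunit genes were detected in the sorted library and 24 in the depleted library, where 8.82 were expected at the depth of the sorted library. Over all genes the same numbers were 14271, 15883 and 13328. Depth limits the genes under 10 counts: of the 35 not measured, 16 had a count in at least 1 library, with at most 8 in either. Exons of 5 subunit genes (Chrna10, Chrnb2, Grin1, Grin3b and P2rx6) overlap another gene by over 10%. Without them, an alternative chosen after seeing the data, 16 of 27 measured were higher and 1 lower.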
